A study of Homo sapiens with 4 samples.

Results

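Bidirectional promoters, at which a pair of protein-coding genes is transcribed away from a shared stretch of DNA, were examined in nucleosome maps of neuroblastoma cells. The members were 948 pairs of autosomal protein-coding genes on opposite strands of hg19 whose canonical transcription start sites (TSSs) pointed away from each other and lay 1 to 1000 bp apart. Some genes share a TSS, so the pairs formed 938 distinct regions with 1816 distinct TSSs, and 59 TSSs belonged to more than 1 pair. They held 1826 of the 18978 autosomal protein-coding genes with a marked canonical transcript, or 9.62%. Only the annotation chose the members, and no nucleosome measurement was used. The pairs were set against 16304 TSSs of genes without a divergent protein-coding partner within 5 kb, called single promoters below.

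The cells were BE(2)C, an established human neuroblastoma line with amplified MYCN, labelled as wild type in all libraries. They had received a control siRNA (2 libraries) or an siRNA against MYCN (2 libraries) at 80 nM according to the labels, whereas the paper's methods give a lower concentration, and were collected on the following day. Crosslinked chromatin was cut with micrococcal nuclease (MNase), which digests the DNA between nucleosomes, and the protected fragments were sequenced (MNase-seq). The paper calls the replicates biological, but the sources used here do not say that they came from separate cultures, so a p-value over libraries measures only the spread between these 4. MNase-seq counts no transcripts and gives no check of the knockdown. BE(2)C is a single line with copy number changes, and reads at a promoter follow its copy number.

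The called nucleosomes of control replicate 1 and MYCN knockdown replicate 1 held 147726171 and 147370973 reads, and those of the replicate 2 libraries held 242544884 and 239257113 reads. Replicate 2 was deeper in both groups, and the authors listed a nucleosome in any library once it had 6 reads. A stretch is therefore more readily found empty in replicate 1. For this reason values are also given with a minimum scaled to depth, which was 6 reads in the replicate 1 libraries and 10 reads in the replicate 2 libraries.

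An active promoter usually holds a nucleosome-free region (NFR) just upstream of its TSS, followed in the gene by the +1 nucleosome, the first one that the polymerase meets, and by an array that is in phase with it. At a bidirectional promoter the polymerases leave in opposite directions from the same open stretch, so, where no other nucleosome lies between the TSSs, the nucleosome upstream of each gene is the +1 nucleosome of its partner. Such promoters are common among housekeeping and DNA repair genes, are usually CpG islands without a TATA box, and often carry sites for ETS factors, NRF1, NF-Y or YY1. MYCN and its partner MAX bind the E-box CACGTG.

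The sequences between the TSSs were compact and rich in CpG. The median spacing was 233 bp, with quartiles of 121 and 398 bp. There were 179 pairs spaced by up to 100 bp, 225 by over 100 and up to 200 bp, 192 by over 200 and up to 300 bp, 179 by over 300 and up to 500 bp, and 163 by more than 500 bp. Between 250 bp before and 50 bp after the TSS, 85.2% of member TSSs had a CpG observed to expected ratio of at least 0.6 and a GC content of at least 55%, called CpG-rich here, against 60.5% of single promoters. Median GC content was 65% at members and 63.7% at single promoters.

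Motif matches were counted in that same window, on both strands and by exact letters. CCGGAAG, an ETS core, was found at 31.7% of member TSSs, 14.2% of all 18900 TSSs and 12.2% of single promoters. Among CpG-rich TSSs only, it was found at 32.9% of members and 16.9% of single promoters. ATGGCGGC (YY1) was found at 9.31% of members and 4.62% of all, GCATGCGC (NRF1) at 7.54% and 4.20%, ACTACAA (ZNF143) at 6.44% and 3.0%, and TGACGTCA (CREB) at 4.57% and 2.69%. CCAAT (NF-Y) stood at 40.9% of members and 35.7% of all, GGGCGG (SP1) at 74.2% and 61.8%, and CACGTG at 11.3% and 8.71%. TATAAA was the single motif counted here that was rarer at members, at 3.74% against 9.67% of all TSSs. Among CpG-rich TSSs the SP1 motif was found at 80.6% of members and 83.8% of single promoters. The windows of paired TSSs overlap, so a match can be counted at both.

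The DNA between the TSSs of 7 pairs shows these features. They were picked among the pairs named below, with at most 300 bp between the TSSs, to cover short and longer intervals, CpG-rich and AT-rich ones. Each is the plus strand of hg19, which runs from the TSS of the gene named first, on the minus strand, to that of the gene named second, on the plus strand, without the TSS bases themselves. Capitals mark matches on either strand to the motifs of NF-Y, ETS, NRF1, YY1, the E-box, CREB or ZNF143 as spelled above.
SURF1/SURF2 (chr9:136223364-136223425): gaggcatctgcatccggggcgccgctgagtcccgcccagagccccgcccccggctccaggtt
HARS1/HARS2 (chr5:140070956-140071039): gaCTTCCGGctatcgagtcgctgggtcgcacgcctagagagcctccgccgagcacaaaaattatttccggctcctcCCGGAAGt
COL4A1/COL4A2 (chr13:110959505-110959630): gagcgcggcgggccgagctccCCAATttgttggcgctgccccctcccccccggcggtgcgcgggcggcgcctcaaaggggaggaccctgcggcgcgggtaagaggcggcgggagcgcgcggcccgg
SARS2/MRPS12 (chr19:39421404-39421583): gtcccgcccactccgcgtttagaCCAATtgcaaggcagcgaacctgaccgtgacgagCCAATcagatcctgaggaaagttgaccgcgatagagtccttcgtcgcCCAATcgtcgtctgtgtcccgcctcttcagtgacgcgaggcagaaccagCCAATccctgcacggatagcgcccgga
H2BC12/H2AC12 (chr6:27114635-27114884): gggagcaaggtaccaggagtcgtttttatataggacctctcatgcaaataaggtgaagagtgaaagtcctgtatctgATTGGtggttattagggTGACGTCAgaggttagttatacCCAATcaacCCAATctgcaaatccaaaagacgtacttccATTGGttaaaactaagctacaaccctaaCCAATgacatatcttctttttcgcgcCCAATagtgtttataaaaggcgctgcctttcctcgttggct
TEPSIN/NDUFAF8 (chr17:79212856-79213117): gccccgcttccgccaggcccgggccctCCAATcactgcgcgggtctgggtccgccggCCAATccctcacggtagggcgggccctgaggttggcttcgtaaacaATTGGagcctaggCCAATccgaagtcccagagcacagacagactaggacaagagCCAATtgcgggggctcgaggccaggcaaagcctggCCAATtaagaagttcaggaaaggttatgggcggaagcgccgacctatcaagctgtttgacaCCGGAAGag
TOP3A/SMCR8 (chr17:18218309-18218606): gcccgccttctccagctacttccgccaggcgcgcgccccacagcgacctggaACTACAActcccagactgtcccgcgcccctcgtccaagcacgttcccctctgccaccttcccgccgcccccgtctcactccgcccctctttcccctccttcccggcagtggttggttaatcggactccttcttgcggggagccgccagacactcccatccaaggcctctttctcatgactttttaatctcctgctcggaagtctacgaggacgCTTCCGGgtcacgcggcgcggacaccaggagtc
The histone pair stands out by its GC content, 42.4% between the TSSs against 80.2% at COL4A1/COL4A2. Over all 938 pairs, 697 (74.3%) had at least 1 of these 7 motifs between their TSSs, 414 CCAAT and 296 CCGGAAG.

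Most bidirectional promoters held a gap of at least nucleosome length around their TSSs in all 4 libraries. Gap width was taken as the longest stretch between the edges of neighbouring called nucleosomes that touched the interval between the TSSs, extended by 50 bp into each gene. Its median over the 938 pairs was 269 and 240.5 bp in the control libraries and 283 and 236 bp in the knockdown libraries. The replicate 2 libraries were the lower ones in both groups, and with the minimum scaled to depth the medians were 269, 286, 283 and 287 bp. A gap that could hold the DNA of a whole nucleosome was found in all 4 libraries at 644 pairs (68.7%), and 25 pairs (2.67%) had a narrower gap in all 4.

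The +1 nucleosomes stood at the same distance from either TSS. The median dyad, the centre of the first nucleosome called within 300 bp of the TSS, lay 128, 129, 131 and 130 bp into the minus-strand gene in the libraries (always given as control 1 and 2, then knockdown 1 and 2). For the plus-strand gene it lay at 127, 127, 131 and 128 bp. A +1 nucleosome was called on both sides of 90.9% and 97.3% of pairs in the control libraries and of 90.0% and 97.4% in the knockdown libraries, and 769 pairs (82.0%) had both in all 4. The +2 dyad followed at a median of 192, 196, 196 and 198 bp.

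Gap width rose with TSS spacing up to 250 bp in all libraries, and beyond that its course depended on depth. In 50-bp bins of spacing, the median gap rose from 157, 146.5, 157.5 and 164.5 bp at 1 to 50 bp (36 pairs) to 342.5, 329.5, 343.5 and 335 bp at over 200 and up to 250 bp (102 pairs). At over 250 and up to 300 bp (90 pairs) it was 337, 284, 377.5 and 226 bp, where the deeper libraries lay below the others. With the minimum scaled to depth, the median at over 250 and up to 300 bp was 337, 350, 377.5 and 351.5 bp, and at over 350 and up to 400 bp (57 pairs) it was 394, 427.5, 413 and 360 bp. At over 450 and up to 500 bp (36 pairs) it was lower again, at 277, 278, 308.5 and 279.5 bp. Across the 596 pairs spaced by up to 300 bp, spacing and the mean gap of the 4 libraries had a Pearson's r of 0.445 and a Spearman's rho of 0.485. Across the 342 pairs spaced further apart the values were -0.0216 and -0.0022. Pairs are not replicates, and all share the same 4 libraries, so these are descriptions. The interval searched for the gap also grows with spacing, which favours wider gaps by construction.

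**Figure D1:**
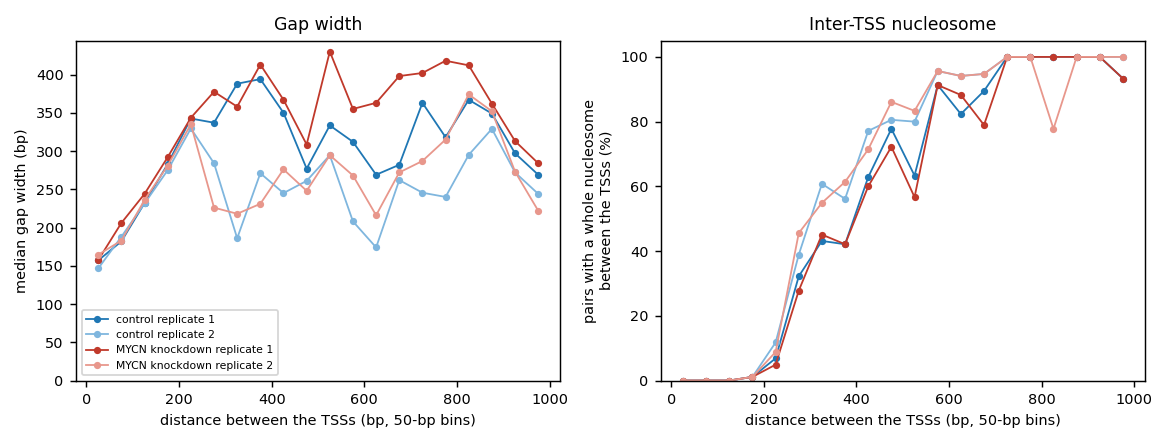
Left, the median gap width (bp) over pairs in 50-bp bins of the distance between TSSs; right, the percentage of pairs with a whole nucleosome between their TSSs; each line is 1 library. Gap width climbs to between 329.5 and 343.5 bp at over 200 and up to 250 bp of spacing, and above that inter-TSS nucleosomes are called more often and, at the deposited minimum plotted here, the replicate 2 libraries lie lower. With the minimum scaled to depth their medians at over 250 and up to 300 bp were 350 and 351.5 bp, against 337 and 377.5 bp in the replicate 1 libraries.

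Whole nucleosomes between the TSSs were called at a growing share of pairs as spacing rose. With TSSs up to 100 bp apart a whole nucleosome cannot fit by definition, and a dyad fell between the TSSs at 6.15%, 7.26%, 1.68% and 8.38% of pairs. A whole nucleosome was found at 6.86%, 11.8%, 4.90% and 8.82% of pairs spaced by over 200 and up to 250 bp, and at 32.2%, 38.9%, 27.8% and 45.6% of those spaced by over 250 and up to 300 bp. At over 300 and up to 500 bp the share was 53.6%, 66.5%, 52.5% and 66.5%, or 53.6%, 54.2%, 52.5% and 55.3% at the scaled minimum. The difference between the replicates was thus smaller at the scaled minimum.

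The pairs with TSSs over 300 and up to 500 bp apart fell into both states. A whole nucleosome stood between the TSSs in all 4 libraries at 83 of the 179 pairs (46.4%), and the longest free stretch then had a median of 211, 189, 222 and 195 bp. In 51 pairs (28.5%) no library had one, and the gap was 484, 474, 499 and 477 bp. These groups were set apart by the same nucleosome lists, so their gap widths are a description. Sequence was not used to separate them, and their median GC content was 62.3% and 62.7%, with a CpG observed to expected ratio of 0.816 and 0.882.

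The place of the central nucleosome varied little between libraries where all 4 had it. In the 69 pairs of that spacing with exactly 1 whole nucleosome between the TSSs in every library, its dyad moved over a median range of 18 bp across the 4 libraries. Its median fuzziness, the SD of read midpoints around the dyad, was 26.4, 29.6, 23.5 and 27.7 bp, and it held a median of 12, 21, 13 and 21 reads. Over all pairs with exactly 1 such nucleosome in the library at hand (89, 111, 87 and 106 pairs), it held a median of 11, 16, 11 and 17 reads, against 15, 21, 16 and 22 reads for the +1 nucleosomes beside it. That larger set includes nucleosomes called in only some libraries. Its dyad lay a median of 40, 35, 33 and 29 bp from the midpoint.

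**Figure D2:**
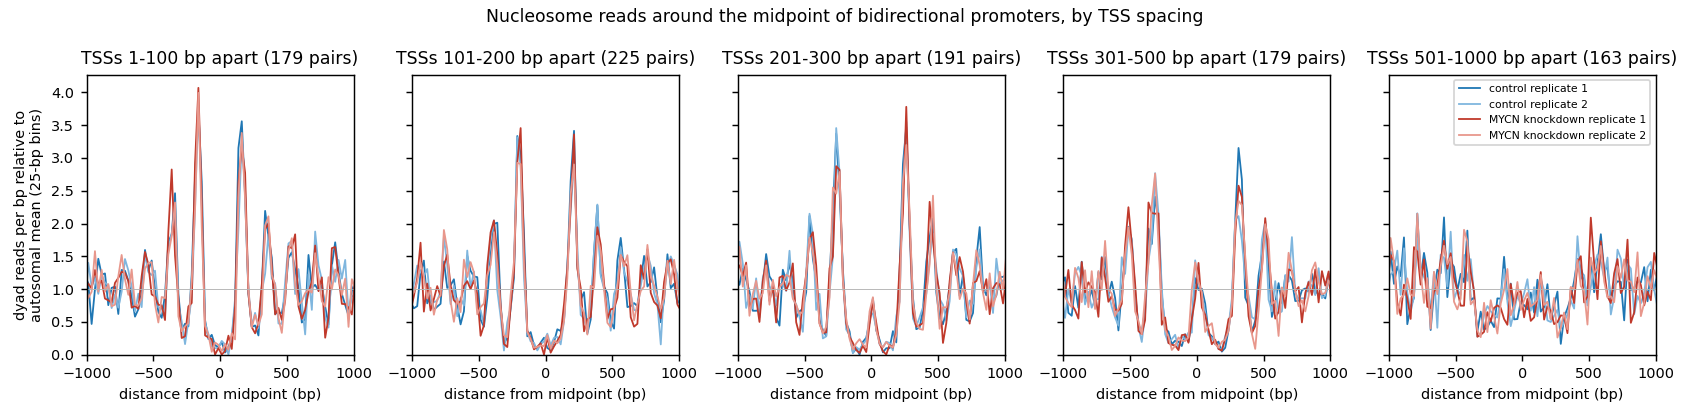
Mean reads of called nucleosomes by dyad position within 1 kb of the midpoint between the TSSs (x axis, bp), relative to the autosomal mean of the library (y axis), for 5 classes of TSS spacing; each line is 1 library, and 1 pair with outlying coverage is left out in the third class. The flanking +1 peaks move apart with spacing, the centre is near 0 below 200 bp, and at 300 to 500 bp a central peak stands inside the gap, with a mean of 0.918, 0.948, 0.878 and 1.12 within 50 bp of the midpoint.

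The +1 nucleosomes kept nearly the same place in the gene in all classes of TSS spacing. The distance between paired +1 dyads is the TSS spacing plus both dyad positions, each at most 300 bp. It therefore rises with spacing by construction. The median distance between the paired +1 dyads was 328, 334.5, 343 and 336 bp in the tightest class and 929, 921, 953 and 921.5 bp in the widest. The median +1 dyad itself ranged from 131.5 to 134 bp into the gene in the tightest class and from 120 to 129 bp in the widest, a shift that was small beside the change in spacing. Median +1 fuzziness ranged from 30.0 to 32.6 bp in the tightest class and from 30.6 to 33.6 bp in the widest.

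The read counts of paired +1 nucleosomes were correlated across pairs. Across 933 pairs, the reads of both, each divided by the library median and averaged over libraries, had a Pearson's r of 0.473 and a Spearman's rho of 0.493. Divided also by the mean read count of all nucleosomes within 2 kb, r was -0.0444 and rho -0.0363. That mean includes both +1 nucleosomes, which lowers the second correlation by construction. All points share the same 4 libraries, and the part of local coverage in the correlation was not tested.

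Bidirectional promoters were more open than single promoters in every library. Gap width, measured here at each TSS in the same way for both kinds (the longest stretch touching the window between 200 bp before and 50 bp after the TSS), had a median of 250, 223, 266 and 218.5 bp at member TSSs. At single promoters it was 170, 145, 179 and 144 bp. The difference was 79.9 ± 5.27 bp (SD over n = 4 libraries), and its exact sign-flip permutation p was 0.13 (two-sided), the smallest that 4 libraries can give. The difference was thus of the same sign in 4 of 4 libraries but could not pass 0.05 in this design. Member TSSs also had fewer reads within 2 kb, with medians of 206.5, 342, 204 and 343 against 225, 365, 221 and 359 at single promoters. The part of coverage in the difference was not tested. Paired TSSs can share the same gap, which is then counted at both.

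An NFR, here that window without a nucleosome lying at least 80% inside it, was present at 81.6%, 74.8%, 84.1% and 73.9% of member TSSs and at 55.6%, 50.2%, 57.6% and 49.6% of single promoters. The members were 25.3 ± 1.07 percentage points higher (SD, n = 4 libraries, exact sign-flip permutation p = 0.13). Both TSSs lay in an NFR in all 4 libraries at 447 pairs (47.7%).

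The difference in gap width was smaller among CpG-rich promoters. Between CpG-rich members (1548 TSSs) and CpG-rich single promoters (9870 TSSs), the gap was 250, 230, 265 and 225.5 bp against 199, 172, 213 and 171 bp, a difference of 53.9 ± 3.12 bp (SD, n = 4 libraries, exact sign-flip permutation p = 0.13). The share with an NFR differed by 18.0 ± 0.491 percentage points on that footing. Leaving out single promoters with a divergent long noncoding RNA within 5 kb gave 86.0 ± 6.87 bp.

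**Figure D3:**
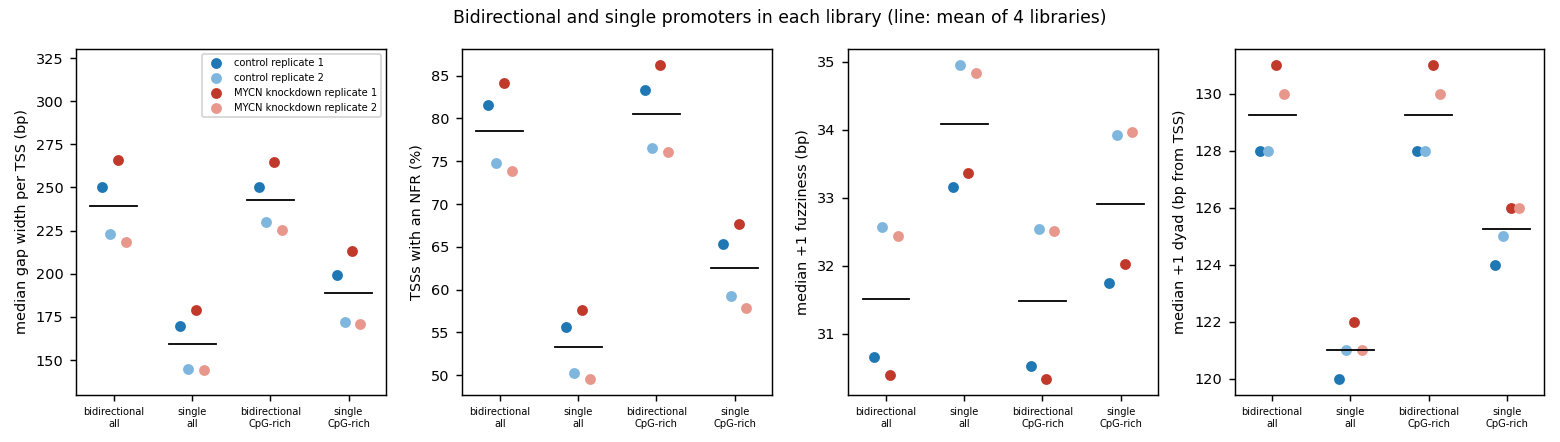
Median gap width per TSS (bp), percentage of TSSs with an NFR, median +1 fuzziness (bp) and median +1 dyad position (bp from the TSS) for bidirectional and single promoters, over all TSSs and over CpG-rich ones; each point is 1 library and each line the mean of 4 (axes do not start at 0). In each library the bidirectional point is above the single one for gap, NFR and position and below it for fuzziness.

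The +1 nucleosome was sharper at bidirectional promoters and lay a little further into the gene, while its median read count differed by at most 1 read. Its median fuzziness was 30.7, 32.6, 30.4 and 32.4 bp at members and 33.2, 35.0, 33.4 and 34.8 bp at single promoters, a difference of -2.56 ± 0.276 bp (SD, n = 4 libraries, exact sign-flip permutation p = 0.13). The median dyad lay 128, 128, 131 and 130 bp from the TSS against 120, 121, 122 and 121 bp. The median +1 read count was 15, 21, 14 and 22 at members and 15, 21, 14 and 21 at single promoters. Relative to the library median it differed by 0.0139 ± 0.0278 (SD, n = 4 libraries, exact sign-flip permutation p = 1).

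The mean profile around the TSS was deeper and more strongly phased at members. Relative to the mean from 1 to 2 kb into the gene, reads between 200 bp before and 50 bp after the TSS stood at 0.40, 0.357, 0.350 and 0.353 at members and at 0.715, 0.661, 0.679 and 0.670 at single promoters. The +1 peak, at 125 to 150 bp, reached 3.52, 3.14, 3.58 and 3.11 against 2.02, 1.88, 1.94 and 1.94. At CpG-rich single promoters the +1 peak was 2.40, 2.2, 2.26 and 2.27.

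**Figure D4:**
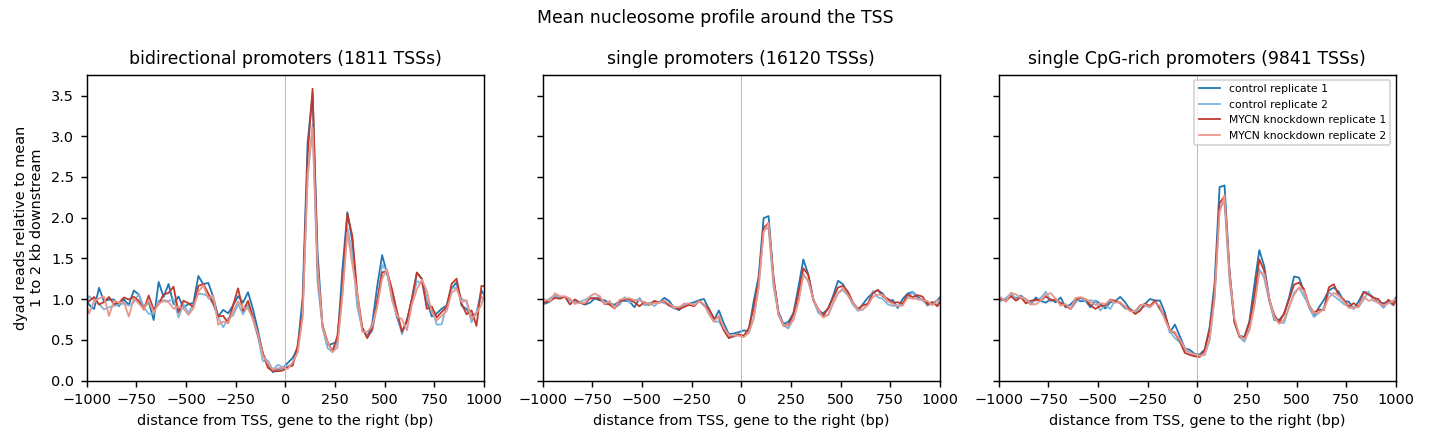
Mean reads of called nucleosomes by dyad position within 1 kb of the TSS (x axis, bp, gene to the right), relative to the mean 1 to 2 kb into the gene (y axis), for 1811 bidirectional, 16120 single and 9841 CpG-rich single TSSs after leaving out those of outlying coverage; each line is 1 library. The members' profile has the deepest trough and the tallest +1 peak, between 3.11 and 3.58, in every library.

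The +1 dyads of members were also the more repeatable ones between libraries. For the 1686 members' +1 nucleosomes called in all 4 libraries, counted once per pair side, the dyad ranged over a median of 32 bp, and 34.2% stayed within 20 bp. For 14373 single promoters the median range was 59 bp, and 20.9% stayed within 20 bp. Between libraries of the same group the median displacement at members was 14 bp for the controls and 14 bp for the knockdown. Between a control and a knockdown library it ranged from 12.5 to 15 bp. Replicates differ in depth, so the values of libraries of like depth (12.5 and 14 bp, both across groups) have no counterpart within a group.

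Most pair medians differed less between control and knockdown than between replicates, and no comparison could pass 0.05. The median gap was 254.8 ± 20.1 bp in controls and 259.5 ± 33.2 bp after knockdown (SD, n = 2 libraries each, exact permutation p = 1). With 2 libraries per group the smallest p such a test can give is 0.33. The 4 values follow depth, and the same-numbered differences had opposite signs, 14 bp and -4.5 bp. The median distance between paired +1 dyads was 503 and 499 bp in controls and 505.5 and 502 bp after knockdown (exact permutation p = 0.667, n = 2 each), and it was higher by 2.5 bp between the replicate 1 libraries and by 3 bp between the replicate 2 libraries.

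The median +1 dyad lay further into the gene in both knockdown libraries. For the minus-strand gene it was at 128 and 129 bp in controls and 131 and 130 bp after knockdown, and for the plus-strand gene at 127 and 127 bp and then 131 and 128 bp. The differences of 2 and 2.5 bp each had an exact permutation p of 0.33 (n = 2 each), the smallest possible, and the groups did not overlap. This was not particular to members. At CpG-rich single promoters the median dyad lay at 124 and 125 bp in controls and 126 and 126 bp after knockdown. At all single promoters it lay at 120 and 121 bp and then 122 and 121 bp. In the limma fit on dyad position 0 members were called, as given below.

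Other pair summaries overlapped between the groups. Median +1 fuzziness was 30.6 and 32.6 bp in controls and 30.4 and 32.4 bp after knockdown, a difference of -0.228 bp (exact permutation p = 0.667, n = 2 each), and the same-numbered differences were -0.24 and -0.215 bp. The share of pairs whose gap could hold a nucleosome was 87.2% and 80.6%, then 89.9% and 83.3%, with a same-numbered difference of 2.67 percentage points in both (exact permutation p = 0.667, n = 2 each). The +1 read count relative to the library median was 1.15 and 1.11 in controls and 1.08 and 1.22 after knockdown (exact permutation p = 1, n = 2 each). The share of pairs with no dyad between the TSSs was 65.2% and 57.7% in controls and 67.8% and 55.9% after knockdown (exact permutation p = 1, n = 2 each), or 65.2%, 66.6%, 67.8% and 66.3% at the scaled minimum.

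No single member passed the threshold in a fit across all promoters. Reads summed within 2 kb of the midpoint (the TSS for other genes) were tested with edgeR's quasi-likelihood test over 18020 regions, of which 0 (0%) had a Benjamini-Hochberg adjusted p under 0.05 and 524 (2.91%) an unadjusted p under 0.05. Among the 938 pairs these numbers were 0 and 24 (2.56%), 15 of them higher and 9 lower after knockdown. In the window of the +1 nucleosome, 0 to 300 bp into the gene, edgeR called 0 of 17435 TSSs and 599 (3.44%) had an unadjusted p under 0.05, and among 1686 members 0 and 45 (2.67%). In the NFR window only 473 members held the 10 reads on average that the test required, so this test saw the less open promoters. It called 0 of 9734 TSSs, with 246 (2.53%) at an unadjusted p under 0.05, and among the members 0 and 9 (1.90%).

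The shape of the promoter was tested with limma. For gap width per TSS, limma called 0 of 18886 TSSs and 717 (3.8%) had an unadjusted p under 0.05, and among 1816 members 0 and 54 (2.97%). For +1 fuzziness it called 0 of 16712 with 708 (4.24%) at an unadjusted p under 0.05, and among 1634 members 0 and 71 (4.35%). For +1 dyad position it called 0 of 16712 with 867 (5.19%), and among 1634 members 0 and 56 (3.43%). DESeq2, run on the 3 count tables, called 0, 1 and 3 regions, of which 0 were members, and 167, 287 and 174 regions had an unadjusted p under 0.05, among them 9, 19 and 7 members.

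Gains and losses of the NFR were counted without a test. An NFR present in both controls and filled in both knockdown libraries was found at 25 of 1246 member TSSs (2.01%), against 411 of all 7983 (5.15%). The opposite, a filled window in both controls that was free in both knockdown libraries, was found at 21 of the 1269 member TSSs with an NFR in both knockdown libraries (1.65%), against 454 of all 8086 (5.61%). Both shares were below those of all promoters, and neither difference was tested. The second share was not taken of the TSSs filled in both controls, which are those that could open. It therefore also falls where NFRs are common, as they were at members. At the scaled minimum 15 of the 25 and 14 of the 21 stayed. Of the 1826 genes in pairs only 50 were in the DNA repair list below, so small counts of them say little. None of the 25 (0) was in that list, and 1 of the 21 was, RAD17, a clamp loader of the replication checkpoint, named after its values were seen. Its window held 16 and 28 reads in controls and 18 and 20 reads after knockdown, and its gap was 113 and 149 bp and then 96 and 108 bp; neither the reads nor the gap separated the groups in the direction of an opening.

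Counted by ranks alone, the gap was wider in both knockdown libraries than in both controls at 318 of 1816 member TSSs (17.5%), against 3043 of all 18886 (16.1%). It was narrower in both at 208 (11.5%), against 2615 of all (13.8%). Both shares lie near those of all promoters.

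The pairs with an E-box were few. CACGTG was found within 150 bp of the midpoint in 102 of the 938 pairs (10.9%), and their median gap was 277, 243.5, 279 and 254.5 bp, against 268.5, 240, 284 and 234 bp in the other 836. Their median log2 change in reads within 2 kb after knockdown was 0.03, against 0.01 without the motif. Pairs with CCAAT in that window (389) had wider gaps, at 320, 283, 318 and 273 bp, than the other 549, at 237, 217, 257 and 214 bp. They were also spaced further apart, with medians of 259 and 202 bp, and had less GC, 61.7% and 65.3%. The part of spacing and of GC in that difference was not tested.

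Among pairs long described as bidirectional, 13 of 15 looked for were members. All 13 are shown in the plot of gap width at named pairs. NPAT/ATM (TSSs at chr11:108093365-108093794) joins NPAT, a coactivator of histone genes, to ATM, the kinase that responds to DNA double-strand breaks. Its gap was 250 and 549 bp in controls and 556 and 543 bp after knockdown. Control replicate 1 differed through a single central nucleosome of 6 reads, the lowest count that was listed, and the other 3 libraries had none. The ATM dyad lay 119, 118, 132 and 119 bp into the gene with 22, 22, 17 and 28 reads.

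Of the mitochondrial pairs, SARS2/MRPS12 (seryl-tRNA synthetase and a ribosomal protein of mitochondria, TSSs at chr19:39421403-39421584) was among the steadiest. Its gap was 273, 279, 286 and 255 bp, and no library had a dyad between the TSSs. The SARS2 dyad lay at 117, 118, 126 and 122 bp. HARS1/HARS2, which encode the cytosolic and mitochondrial histidyl-tRNA synthetases, had 252, 399, 214 and 312 bp. SURF1/SURF2, of which SURF1 assists assembly of cytochrome c oxidase, had 34 bp in control replicate 1 and between 174 and 204 bp in the other 3 libraries, and the narrow value again came with a nucleosome of 6 reads between the TSSs. HSPD1/HSPE1, the subunits of the mitochondrial chaperonin, are 539 bp apart and had 187, 188, 166 and 385 bp, with 2, 2, 2 and 1 dyads between the TSSs.

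The collagen IV pairs, which encode basement membrane chains, were among the narrower ones. COL4A1/COL4A2 had a gap of 89, 72, 85 and 196 bp, below the median of its spacing class (246 to 260 bp) in all 4 libraries. COL4A4/COL4A3 (TSSs at chr2:228028921-228029340) had 190, 120, 229 and 103 bp, and its +1 dyads were scattered from 9 to 291 bp for COL4A4 and from 22 to 200 bp for COL4A3. TAP1/PSMB9, genes of antigen processing, had 98, 182, 218 and 190 bp.

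The purine pairs had wider gaps than the median pair, and the repair pairs varied. Both purine pairs are spaced by more than 500 bp, a class with median gaps of 312, 262, 363 and 282 bp. In knockdown replicate 1 neither exceeded the median of that class. PPAT/PAICS, enzymes of purine synthesis 645 bp apart, had 400 and 425 bp in controls and 363 and 328 bp after knockdown, and GART/SON had 356, 349, 329 and 352 bp. PRKDC/MCM4 joins the catalytic subunit of DNA-dependent protein kinase, which acts in end joining, to a subunit of the replicative helicase, and had 349, 357, 443 and 288 bp. ZAR1L/BRCA2 had 172, 265, 175 and 235 bp with no dyad between the TSSs in any library. TOP3A/SMCR8 had 232, 227, 402 and 192 bp, with a nucleosome of 6, 6 and 7 reads between the TSSs in all but knockdown replicate 1. In PPAT/PAICS both knockdown values lay below both control values. With the minimum scaled to depth that pair read 400 and 881 bp, then 363 and 491 bp, and the groups overlapped.

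**Figure D5:**
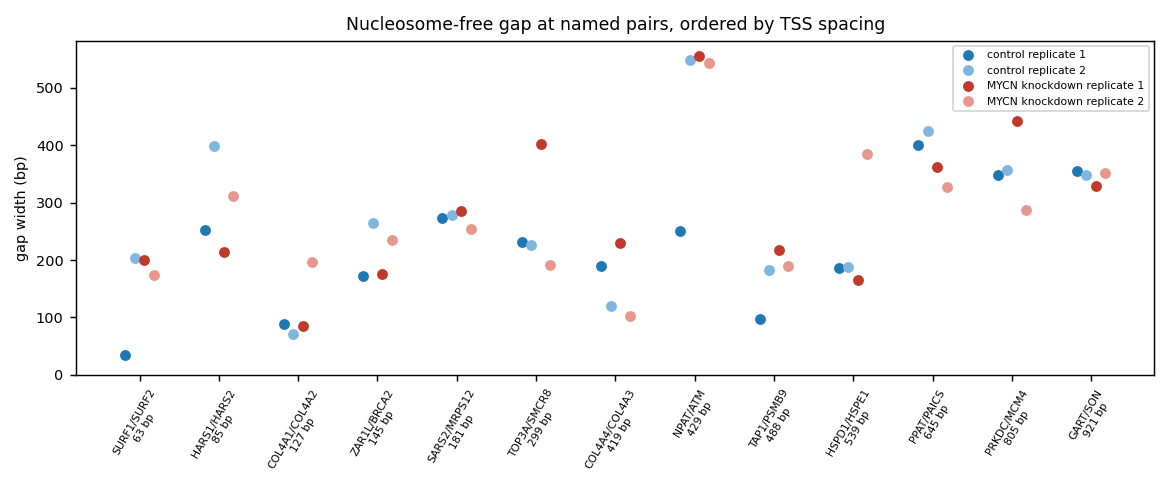
Gap width (bp) at the 13 pairs often described as bidirectional, ordered by TSS spacing, with 1 point per library. SARS2/MRPS12 ranges from 255 to 286 bp and GART/SON from 329 to 356 bp, whereas single points of SURF1/SURF2 (34 bp) and NPAT/ATM (250 bp) lie far from the other 3.

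The widest gaps were of different kinds. SKA2/PRR11, genes of mitosis 560 bp apart, had 685, 647, 693 and 635 bp, with +1 nucleosomes on both sides in all libraries. CCDC96/TADA2B had 703, 677, 720 and 668 bp, and no +1 nucleosome of TADA2B, a subunit of SAGA-type acetyltransferase complexes, was called within 300 bp. OARD1/NFYA, of which NFYA encodes the sequence-specific subunit of NF-Y, had 784, 1080, 898 and 774 bp, with no NFYA +1 nucleosome in any library and 119, 196, 125 and 187 reads within 2 kb. HACL1/BTD had 1378, 210, 954 and 605 bp and ZRANB3/R3HDM1 1866, 1064, 380 and 369 bp. These 3 pairs held few reads within 2 kb (for the last 2 of them 65, 196, 90 and 218, and 57, 148, 81 and 163, against pair medians of 206, 343.5, 204 and 342), so their gaps cannot be told apart from low coverage.

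The narrowest gaps included genes known for narrow expression. DCST2/DCST1, which act in sperm, had 92, 2, 42 and 51 bp, and DEFB124/REM1, of which DEFB124 encodes a defensin, had 38, 44, 25 and 61 bp. PRAC1/PRAC2, named for their expression in prostate and colon, had 72, 63, 41 and 60 bp with 3, 3, 4 and 4 dyads between the TSSs. C11orf21/TSPAN32 had 12, 68, 144 and 4 bp. The CpG observed to expected ratio around the midpoint was 0.229, 0.494, 0.214 and 0.245 at these 4 pairs, against a median of 0.880 over all pairs. DMGDH/BHMT2, enzymes of choline breakdown, stood apart with a ratio of 0.843, and its gap was 197, 35, 26 and 66 bp, where weak nucleosomes of 7 and 8 reads in the replicate 2 libraries and of 14 reads in knockdown replicate 1 lay between the TSSs.

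The best covered +1 nucleosomes, outside regions of extreme coverage, were at 4 pairs spaced by less than 100 bp and at HADHA/HADHB. FOXM1/RHNO1, a transcription factor of the cell cycle and a partner of the DNA damage checkpoint clamp, are 49 bp apart. The FOXM1 +1 nucleosome held 39, 26, 30 and 41 reads with dyads at 135, 129, 127 and 132 bp, and that of RHNO1 held 36, 34, 22 and 40 reads, against pair medians of 14 to 22. The gap was 156, 185, 139 and 152 bp. HADHA/HADHB, the subunits of the mitochondrial trifunctional protein of fatty acid oxidation, are 307 bp apart and carried a central nucleosome of 15, 25, 13 and 10 reads in all libraries, with a gap of 134, 133, 142 and 132 bp. COG5/DUS4L, MRPL21/IGHMBP2 and WFDC3/DNTTIP1 made up the 5, with means of 2.07, 2.03 and 2.00 times the library median. The lowest were CHCHD4/TMEM43, CTDNEP1/ELP5 and HACL1/BTD, at 0.528, 0.529 and 0.539 times.

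The 5 pairs with the smallest unadjusted p in the 2-kb fit did not pass the adjusted threshold, each with an edgeR adjusted p of 1.0. MIX23/FAM162A had 174 and 281 reads in controls and 211 and 388 after knockdown, a log2 change of 0.42 ± 0.14 (SE). PCED1A/VPS16, of which VPS16 acts in endosome fusion, had 88 and 189 and then 153 and 241 reads, a log2 change of 0.58 ± 0.22. NDUFB1/CPSF2, a complex I subunit and a pre-mRNA cleavage factor, had 221 and 335 and then 278 and 404 reads (log2 change 0.34 ± 0.13). TSGA10/LIPT1 had 78 and 166 and then 133 and 228 reads (0.63 ± 0.25), but 0.20 in a window of 1 kb on each side. MRPL14/TMEM63B went the other way, with 180 and 399 and then 141 and 297 reads, a log2 change of -0.36 ± 0.14. Without control replicate 1 or 2 this was -0.54 or -0.10, and without knockdown replicate 1 or 2 -0.21 or -0.57. At PCED1A/VPS16 the gap was 375 and 336 bp and then 172 and 173 bp, and at TSGA10/LIPT1 792 and 316 bp and then 231 and 190 bp, so both control values lay above both knockdown values. Such a narrowing was counted at 11.5% of member TSSs and 13.8% of all TSSs. These pairs were picked by reads in the same called nucleosomes that set the gap, so their gaps are a description. With the scaled minimum the PCED1A/VPS16 values were 375, 534, 172 and 407 bp, and the groups overlapped.

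Of these 5, NDUFB1/CPSF2 also had the most constant shape. Its TSSs are 263 bp apart, a central nucleosome of 20, 35, 19 and 35 reads stood between them in all 4 libraries, and the gap was 132, 138, 127 and 124 bp. The NDUFB1 dyad lay at 129, 127, 121 and 118 bp and that of CPSF2 at 125, 124, 121 and 124 bp.

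DNA repair genes were frequent among the members. Of 155 autosomal genes of a repair list, 50 (32.3%) were in bidirectional pairs, against 9.62% of all genes. The list was drawn up with earlier results on these samples known, and no test was made. The 50 pairs that hold them had a median gap of 313, 286, 310 and 288.5 bp, against 269, 240.5, 283 and 236 bp over all pairs, and 39 (78%) had a gap of at least the length of a nucleosome in every library, against 68.7%. These 50 pairs also held fewer reads within 2 kb, with medians of 173, 307, 185 and 300 against 206, 343.5, 204 and 342 over all pairs. The part of coverage in their gap width was not tested. In 28 no library had a dyad between the TSSs, which was also so in 455 of all 938 pairs (48.5%). Their reads within 2 kb had a median log2 change of 0.06, against 0.02 over all pairs, with 33 above 0 and 17 below. Over all pairs 513 were above 0 and 425 below. The median over all pairs was itself -0.02 without control replicate 1 and 0.05 without control replicate 2, so its sign rests on single libraries. Of these 50, 0 passed the edgeR threshold and 1 had an unadjusted p under 0.05, against 24 of all 938 pairs (2.56%).

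The extremes of that list were RRP9/PARP3 and AK6/RAD17. PARP3, which acts in the repair of strand breaks, shares a gap of 791, 505, 522 and 579 bp with RRP9, a protein of ribosomal RNA processing. AK6/RAD17 had 151, 149, 141 and 127 bp, with a central nucleosome of 16, 28, 18 and 20 reads in all libraries.

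Replication genes were members in 14 of 55 cases (25.5%). Their 14 pairs had a median gap of 283.5, 233, 275 and 236 bp and a median log2 change of 0.08. Of these pairs 0 were called by edgeR and 1 had an unadjusted p under 0.05, against 24 of all 938 pairs (2.56%). The widest was ORC4/MBD5, ORC4 being a subunit of the origin recognition complex, at 566, 872, 500 and 329 bp, with only 83, 104, 72 and 146 reads within 2 kb. The narrowest was CHTF8/UTP4 at 161, 131, 131 and 157 bp. Of 32 genes of nucleotide synthesis 4 were members, in 3 pairs, with 0 at an unadjusted p under 0.05 and 0 called by edgeR.

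Genes of mitochondrial ribosomes and complex I were frequent as well, and aminoacyl-tRNA synthetases, cytosolic and mitochondrial, were counted beside them. Mitochondrial ribosomal proteins were members in 26 of 77 cases (33.8%), complex I subunits and assembly factors in 15 of 43 (34.9%) and aminoacyl-tRNA synthetases in 8 of 38 (21.1%). The median gap of their pairs was 268, 269, 286 and 255 bp, 241, 206, 237 and 257 bp, and 289, 309, 286 and 272 bp. Each of the first 2 lists, of 27 and 15 pairs, had 1 pair at an unadjusted p under 0.05, MRPL14/TMEM63B and NDUFB1/CPSF2 above. The synthetases had 0, edgeR called 0, and over all 938 pairs 24 (2.56%) had an unadjusted p under 0.05. The extremes were TCP1/MRPL18 (514, 545, 384 and 347 bp) and MRPL13/MTBP (140, 122, 139 and 132 bp), TEPSIN/NDUFAF8 (396, 390, 400 and 408 bp) and NDUFB1/CPSF2, and EARS2/UBFD1 (457, 470, 536 and 471 bp) and LYRM4/FARS2 (from 123 to 347 bp).

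TEPSIN/NDUFAF8 and NDUFB1/CPSF2 have the same TSS spacing, 263 bp, and show both states of that class. NDUFAF8 takes part in assembly of complex I. Its promoter, printed above with 6 CCAAT matches, had no dyad between the TSSs in any library, whereas NDUFB1/CPSF2 had its central nucleosome in all 4 and holds 1 match. These pairs were picked, and the part of the motif was not tested.

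Cytosolic ribosomal proteins were members in 14 of 75 cases (18.7%). Their 15 pairs had a median gap of 241, 259, 271 and 258 bp, and the median log2 change was -0.05, with 4 above 0 and 11 below, 0 at an unadjusted p under 0.05 and 0 called by edgeR. Over all pairs 513 changes were above 0 and 425 below, and the difference was not tested. CLHC1/RPS27A was widest at 444, 200, 903 and 408 bp and RPL4/ZWILCH narrowest at 107, 78, 141 and 160 bp.

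Replication-dependent histone genes, which are transcribed in S phase to package new DNA, formed 11 pairs in which both genes were of the list, 22 of 68 genes (32.4%). Their gaps were wide, with a median of 453, 380, 359 and 341 bp, although median GC content around the midpoint was 42% against 64% over all pairs. The median reads within 2 kb were 111, 222, 127 and 237, below the 206, 343.5, 204 and 342 of all pairs, and their +1 nucleosomes were fuzzier, at 36.8, 36.7, 32.3 and 33.4 bp. MNase prefers to cut AT-rich DNA, and the part of GC content and coverage in the width was not tested. In 9 of the 11 no library had a dyad between the TSSs, against 455 of all 938 pairs (48.5%). H2BC12/H2AC12 was widest at 622, 383, 790 and 344 bp, and its 250 bp between the TSSs, printed above, hold 6 CCAAT matches and a TGACGTCA. H2AC1/H2BC1, the histone pair of the testis, was narrowest at 64, 112, 116 and 150 bp with a dyad between the TSSs in all 4 libraries. In the 2-kb fit 2 of the 11 pairs had an unadjusted p under 0.05, against 24 of all 938 pairs (2.56%), and 0 were called by edgeR. The median log2 change of the 11 was 0.08, with 8 above 0 and 3 below. Neither difference from all pairs was tested.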

How the data were processed

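MNase-seq nucleosome lists of 2 control and 2 MYCN knockdown libraries were used, with groups taken from the sample titles. Per the labels, reads passed through CASAVA 1.9, Trim Galore 0.4.4 and Bowtie2 2.2.4 against hg19. According to the paper's methods, the authors removed duplicates and called nucleosomes with Genetrack, and they pooled replicates for their own further analysis, whereas the deposited lists are 1 per library. The authors deposited, for each nucleosome, a read count (whole numbers, at least 6 in every library) and its fuzziness, another measured value, which is the SD in bp of fragment midpoints about the dyad. The paper's methods call this occupancy a normalized count. It was taken as unscaled here, since every value is a whole number and the library totals are unequal.

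TSSs came from GENCODE v44lift37. Reads were summed by dyad position and tested with edgeR 4.0.16 (TMM, mean of at least 10 reads), with DESeq2 1.42.0 as an alternative, and gap width, +1 fuzziness and +1 position with limma 3.58.1 (R 4.3.3). Each fit ran over all autosomal promoters with adjusted p under 0.05 called. On simulated data, edgeR and DESeq2 were first tried for reads within 2 kb and limma for gap width. The changes planted there were large, and the other measures were not simulated. Single values per library were compared by exact permutation over libraries. Profiles left out TSSs above the 99th percentile of reads.

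Members, gene lists and tests were chosen with earlier results of these data known. Pairs were named if they were often described as bidirectional, had 1 of the 5 widest or narrowest gaps, 1 of the 5 smallest p in the 2-kb fit, 1 of the 5 highest or 3 lowest +1 counts between the 5th and 95th percentiles of local reads, or the widest or narrowest gap of a list. Some items are not reported here.

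Only reads in called nucleosomes are counted, so an empty stretch may hold fewer than 6 reads. MNase cutting and duplicate removal both limit what is seen at AT-rich or highly covered sites. Sequences are of the GRCh37 reference and not of the cells.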

Additional observations from a re-analysis of the deposited data

How the results depend on the processing

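Of 172 values under alternatives to 23 results, 155 kept their side of the threshold or moved by less than the spread between libraries, and 17 moved further. No difference between control and knockdown was called, so none could lose its call. DESeq2 in place of edgeR called 1 region in the +1 window and 3 in the NFR window, and without knockdown replicate 2 limma called 1 TSS for fuzziness, where the main fits called 0. None of these is a bidirectional promoter. With the replicate block all 6 fits again called 0, although edgeR then gave 1162 regions an unadjusted p under 0.05 in the 2-kb fit, 55 of them members, against 524 and 24. Nothing in the labels says that the replicate number marks a shared culture, and with 2 pairs the numbers could not be shown to pair the libraries.

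Against single promoters without a divergent long noncoding RNA, the difference in gap was 86 bp, in +1 dyad 9.75 bp, in the share with an NFR 27.16 percentage points and in the dip -0.3426. Among CpG-rich promoters these were 53.88 bp, 4 bp, 18.04 points and -0.1663, with -1.435 bp for fuzziness, 0.0794 for +1 reads and 1.103 for the +1 peak. The scaled minimum gave a gap difference of 86 bp, a +1 search limit of 200 bp a dyad difference of 11.75 bp, and counting nucleosomes lying 50% inside the window an NFR difference of 27.17 points.

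Leaving out 1 library at a time, the knockdown difference in median gap ran from -18.75 bp without knockdown replicate 1 to 28.25 bp without knockdown replicate 2, so its sign rests on single libraries. That in +1 reads ran from -0.05263 to 0.09267, in fuzziness from -1.24 to 0.785 bp, in the share without a dyad from -5.597 to 6.343 points and in dyad distance from 0.75 to 4.75 bp. The difference from single promoters ran from 77.5 to 81.67 bp for gap and from 24.94 to 25.66 points for NFRs. Depth limits each empty stretch, since fewer than 6 reads were not listed.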
